A study of Homo sapiens with 24 samples.

Results

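MOLM14 cells grown without drug were compared with the other acute myeloid leukaemia (AML) lines of the study, HL60, KG1a and U937, also grown without drug. The comparison used the 12 untreated (Ctrl) arrays out of 24 Affymetrix expression arrays, 3 arrays for each of the 4 lines, lettered A to C. For each gene, the mean of the 3 MOLM14 arrays was set against the mean of the HL60, KG1a and U937 group means, each line with equal weight, and the sign of the difference from each of the 3 lines was also recorded. The remaining 12 arrays hold the same lines after 10 mM metformin, an inhibitor of respiratory complex I, for 24 hours. They are used here as a second set of arrays in which the same line difference can be read. All cells were kept in exponential growth, and the labels class KG1a and MOLM14 as high and HL60 and U937 as low in oxidative phosphorylation. Each group is 1 established line, so the MOLM14 values describe that line and not a class of leukaemia. The labels do not tell whether the lettered arrays are separate cultures of a line. The p-values therefore measure the spread between these arrays, which may be technical, and the number of arrays limits the precision.

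MOLM14 is a monocytic AML line that carries the KMT2A::MLLT3 fusion and an internal tandem duplication of the receptor tyrosine kinase gene FLT3. KMT2A fusions keep a set of developmental genes active, among them HOXA genes and their partners MEIS1 and PBX3, MEF2C and FLT3 itself. U937 is a monocytic line with a PICALM::MLLT10 fusion, HL60 is a promyelocytic line, and KG1a is an immature line that expresses the stem cell antigen CD34.

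The values are normalised signals on a log2 scale, so a difference of 1 means a doubling. They ran from 1.88 to 14.2 over the whole table. A gene was tested where at least 1 of the 8 group means reached 4.02, the median of all values, which left 10641 of 14884 named genes. No detection call comes with the values, so a signal under 4.02 is called low here and not absent. The array rows named here held no gene symbol for several genes central to the MOLM14 background, including HOXA9, HOXA10, CDKN1A, MDM2, ZMAT3, CD33, CD74 and ITGAM, and these were not analysed here. The untreated MOLM14 arrays carried the leukocyte gene LAPTM5 (mean 10.65), the myeloid gene SPI1 (7.94) and granule genes such as PRTN3 (12.26). Markers of other lineages were mixed. Stem cell genes CD34 (3.57), PROM1 (3.64) and HLF (3.77) were low, but KIT read 4.24. T cell genes CD2 (3.89) and LCK (3.60) were low, but CD5 read 4.30 and CD7 4.34. The red cell gene KLF1 (3.90) was low, but GATA1 read 4.17 and the megakaryocyte gene PF4 4.66. The B lineage gene PAX5 read 6.29. Among monocyte markers, CD14 (3.62), CD163, S100A12 and VCAN were low, while FCN1 (4.37), CD86 (4.39), CSF1R (5.99) and MNDA (6.87) were not.

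Untreated MOLM14 differed from the mean of the other 3 lines in 6597 of the 10641 genes tested, or 62.0% (limma, Benjamini-Hochberg adjusted p under 0.05), with 2933 higher (27.6%) and 3664 lower (34.4%). The median difference over all genes tested was -0.05. Single pairs of lines gave counts of the same order, with 6026 genes different from HL60 (56.6%), 6497 from KG1a (61.1%) and 5922 from U937 (55.7%). A stricter group of 2190 genes (20.6%) differed from each of the 3 lines with 1 sign and an adjusted p under 0.05 in every pair, 1124 of them higher (10.6%) and 1066 lower (10.0%) in MOLM14. These genes are called apart from each line below. Among them, 520 were higher and 295 lower by at least 1 log2 unit, and 67 were higher and 20 lower by at least 3 units. Of the genes tested, 224 passed the level filter through MOLM14 groups alone, which favours the higher side of all these counts. Without those 224 genes, 972 of 10417 were apart upward (9.33%) and 1066 downward. Without the HL60 and U937 arrays lettered C, which had a narrower spread of values than the other untreated arrays, the counts were 6668 against the mean and 2167 apart from each line. With each line taken as 1 value, which leaves 2 residual degrees of freedom, 0 genes passed the adjusted threshold in limma. In that fit 573 genes had an unadjusted p under 0.05 and the smallest adjusted p was 0.0806.

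FLT3 had the largest difference of all genes tested. Its 3 MOLM14 arrays read 10.29, 10.42 and 10.44, while the 9 other arrays lay between 3.17 and 3.73 with a median of 3.35. The difference was 6.96 ± 0.08 (SE from limma, n = 3 arrays per line, adjusted p = 1.5e-27), and no array of another line came near the MOLM14 arrays. All 3 other lines were low for FLT3, which passed the level filter through MOLM14 arrays alone. PAN3, which encodes a regulator of mRNA deadenylation and lies beside FLT3 on chromosome 13, was also apart from each line, at 10.45, 10.50 and 10.50 in MOLM14 against 8.54 to 8.95 elsewhere, a difference of 1.72 ± 0.06 (adjusted p = 1.35e-18).

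The other coding genes with the largest positive differences were of mixed function. PDLIM1, a PDZ and LIM domain protein of the actin cytoskeleton, read 10.35, 10.22 and 10.21 in MOLM14 and 3.90 to 4.45 in the other arrays, a difference of 6.09 ± 0.07 (adjusted p = 3.64e-27). POPDC1, a membrane protein known from heart and skeletal muscle, read 8.65 to 8.67 in MOLM14 and 3.15 to 3.29 elsewhere, a difference of 5.45. PLXDC2, a transmembrane protein of the plexin domain containing family, differed by 5.15 and the desmosomal cadherin DSC2 by 5.07. In both genes every other array was below 4.02.

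Some of the strongest genes were shared in part with 1 other line. LGR4, a receptor for R-spondins that enhances Wnt signalling, read 8.83 to 8.97 in MOLM14, near 4.92 in HL60 and near 3.26 and 3.16 in KG1a and U937, and differed by 5.11. RET, a receptor tyrosine kinase, showed the same order, with 8.92 to 8.98 in MOLM14, 5.70 as the HL60 mean and 3.49 and 3.46 as the KG1a and U937 means, a difference of 4.73 ± 0.08. IRF8, a transcription factor needed for monocyte and dendritic cell development, read 10.12, 10.33 and 10.22 in MOLM14 and 8.07 on average in U937, but 3.85 in HL60 and 4.11 in KG1a. The IRF8 difference from the mean of the 3 lines was 4.88 and that from U937 alone 2.16.

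MPEG1, which encodes the pore-forming perforin-2 of macrophages, read 8.68, 8.77 and 8.75 in MOLM14 and at most 3.97 elsewhere, a difference of 4.96 ± 0.07 (adjusted p = 2.58e-26). VAT1L differed by 4.83, the homeobox gene DLX5 by 4.72, and ZNF521, a zinc finger cofactor of immature haematopoietic cells, by 4.65. For DLX5 and ZNF521 the 9 other arrays all read below 4.02, and for VAT1L they reached 4.28. Of the 67 genes apart by at least 3 units upward, 19 were below 4.02 on average in all 3 other untreated lines. MPEG1, POPDC1, PLXDC2, DSC2, DLX5 and ZNF521 were among these 19. In such genes MOLM14 was the only untreated group to reach the filter level. The filter thus favoured higher values there, and their p-values are not free of this selection.

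**Figure D1:**
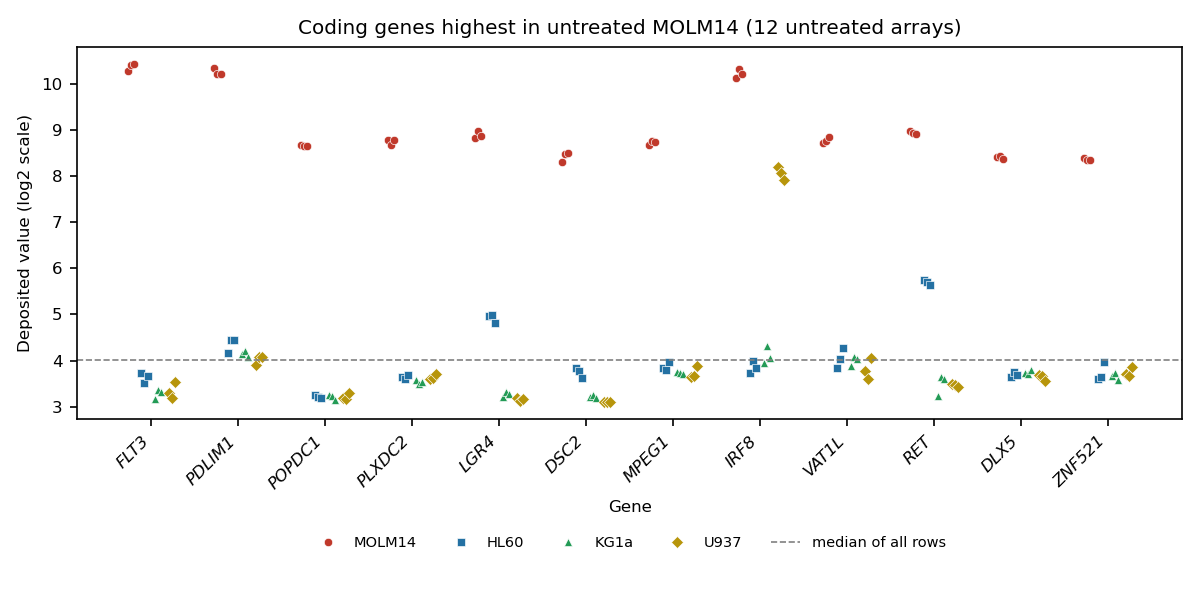
Deposited log2 values of the 12 coding genes highest in untreated MOLM14, with 1 point per array, 3 arrays per line, and a dashed line at 4.02, the median of all values. The MOLM14 points lie above every other array in each gene. HL60 is intermediate for LGR4 and RET, and U937 for IRF8.

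PROSER1 had the largest negative difference. The gene encodes a proline and serine rich protein and lies on chromosome 13. Its MOLM14 arrays read 4.06, 4.02 and 3.96, near the median of all values, while the other 9 arrays read 9.53 to 10.51. The difference was -6.01 ± 0.07 (adjusted p = 8.17e-28). NHLRC3, the neighbouring gene transcribed the other way, was also low in MOLM14 and is named here after its values were seen. It read 3.50 on average in MOLM14, against 7.06 in HL60, 6.83 in KG1a and 6.34 in U937, a difference of -3.25 ± 0.07 (adjusted p = 3.15e-22).

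Both genes start within 1 short stretch of chromosome 13, which is why it is shown. In RefSeq (GRCh38.p14) PROSER1 starts at position 39038089 on the minus strand and NHLRC3 at 39038311 on the plus strand, with 221 bases between the starts, at chr13:39038090-39038310. A second RefSeq start of NHLRC3 lies further downstream. The bases between the starts, on the plus strand with no part marked, are as follows.
PROSER1 and NHLRC3: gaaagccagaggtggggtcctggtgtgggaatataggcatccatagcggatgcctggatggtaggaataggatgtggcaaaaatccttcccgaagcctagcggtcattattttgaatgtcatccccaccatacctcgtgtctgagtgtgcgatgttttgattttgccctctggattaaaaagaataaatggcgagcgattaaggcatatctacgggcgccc

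The tested genes on either side of this pair were not low in MOLM14. UFM1, on the PROSER1 side, differed by 0.52 (adjusted p = 0.000148) and EXOSC8, the next tested gene, by 0.46. On the NHLRC3 side, LHFPL6 differed by -0.02 (adjusted p = 0.833) and COG6 by 0.47. The low signal was thus seen in this divergent pair and not in its flanking tested genes. In the metformin-treated arrays PROSER1 differed by -6.48 and NHLRC3 by -3.66.

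The next lowest coding genes included surface and signalling proteins of leukocytes. CD69, an early activation antigen of lymphocytes and other leukocytes, read 3.50, 3.65 and 3.27 in MOLM14 and 7.37 to 9.30 elsewhere, a difference of -4.74 ± 0.10 (adjusted p = 2.72e-22). ANPEP, the aminopeptidase known as CD13 and a common myeloid surface marker, read 3.75 to 3.90 in MOLM14, 5.51 on average in HL60, and 9.29 and 9.39 in KG1a and U937, a difference of -4.25. STAP1, a signalling adaptor, differed by -3.58 and TNIK, a kinase that works with Wnt target gene regulators, by -3.75.

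Other strongly low genes act in metabolism, transport and the nucleus. ECI2, an enoyl-CoA isomerase of fatty acid oxidation, read 3.74, 3.51 and 3.47 in MOLM14 and 6.63 to 8.28 elsewhere, a difference of -3.88 ± 0.07 (adjusted p = 1.63e-23). CYB5A, the cytochrome b5 electron carrier, differed by -3.75, although U937 was also low for it, at 4.32 on average. The kinesin KIF21A differed by -3.55, the zinc finger gene ZNF35 by -3.56, the germ cell factor GTSF1 by -4.47 and the HMG-box factor TOX by -3.48. GTSF1 and ZNF35 separated MOLM14 from the other lines evenly, with gaps to the nearest line of 4.05 and 3.27.

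TARP, a transcript read from within the T cell receptor gamma locus, differed by -4.84, with 3.36 to 4.06 in MOLM14 and 7.55 to 8.94 elsewhere. Its row can share signal with the overlapping receptor gene, so the gene behind the value is uncertain. Of the 20 genes apart by at least 3 units downward, 17 had an untreated MOLM14 mean below 4.02.

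**Figure D2:**
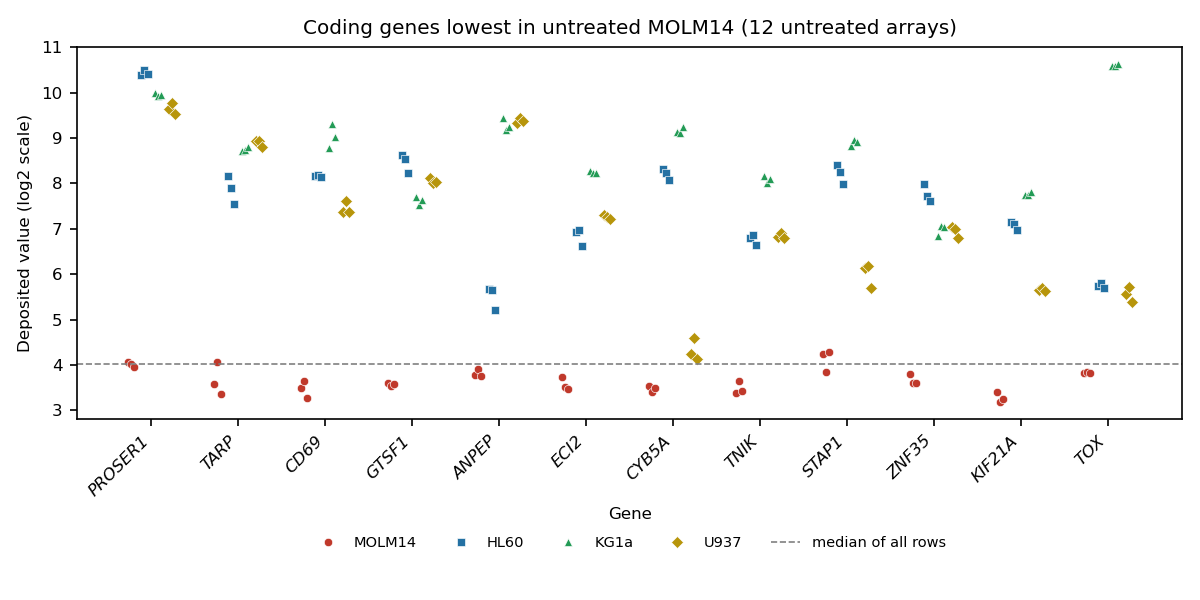
Deposited log2 values of the 12 coding genes lowest in untreated MOLM14, with 1 point per array, 3 arrays per line, and a dashed line at 4.02, the median of all values. MOLM14 lies below every other array in each gene. The gap is widest for PROSER1, and U937 comes closest for CYB5A.

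Among loci that do not encode proteins, the highest were LOC283683, with 7.09 to 7.27 in MOLM14 and 3.35 to 4.48 elsewhere (difference 3.51), the pseudogene PDCD6IPP2 (3.32) and MIR124-1HG, the host transcript of a neuronal microRNA (3.24). PDCD6IPP2 has close copies, so its signal cannot be given to 1 locus with certainty. The lowest were LINC01002 (-2.73), MIR1299 (-2.22 ± 0.26) and LOC729737 (-1.67). The LOC729737 arrays of MOLM14 were still well expressed, at 8.14 to 8.30, against 9.16 to 10.92 elsewhere.

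KMT2A fusion target genes other than HOX genes included FLT3 and several nuclear regulators. Of 24 tested members, 15 were higher and 4 lower than the mean of the 3 lines, and 11 were apart from each line upward and 1 downward, where 10.6% and 10.0% of all genes tested were. The list median was 0.34, against -0.05 for all genes tested. FLT3, SKIDA1 and VNN1 passed the filter through MOLM14 alone, so they had to be higher there. Of the other 21 members 8 were apart upward and 1 downward, with a median of 0.23, where 9.33% of all genes that passed otherwise were apart upward. The list was written with earlier results of these data known and is no independent evidence of a direction.

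SKIDA1, a SKI/DACH domain protein, read 6.41, 6.41 and 6.72 in MOLM14 and 3.30 to 3.84 elsewhere, a difference of 2.93 ± 0.10 (adjusted p = 2.04e-18). MEF2C, a transcription factor linked to self-renewal of KMT2A-rearranged leukaemia, read 8.41, 8.21 and 8.08 in MOLM14 and 7.60 on average in KG1a, but 4.98 in HL60 and 4.62 in U937. The MEF2C difference was 2.50 from the mean and 0.63 from KG1a, the nearest line. Further members, named after their values were seen, were CPEB2 (2.55), IGF2BP2 (2.25), JMJD1C (2.03) and ZEB2 (1.59).

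Other members did not set MOLM14 apart. MYB (0.23), BCL2 (0.19) and CDK6 (0.43) passed the test against the mean with small differences, MYC was lower by -0.42, and LMO2 (0.15) and GFI1 (-0.01) did not pass. TCF4, a basic helix-loop-helix factor of progenitors and plasmacytoid dendritic cells, went the other way. It read 4.67, 4.72 and 4.55 in MOLM14 and 6.31 to 7.88 elsewhere, a difference of -2.31 ± 0.08 (adjusted p = 3.71e-18).

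HOX genes and their TALE partners were measured in part. Of 34 named members 19 were tested, 7 were higher and 3 lower, and the median of 0.04 was near that of all genes. The TALE genes MEIS1 and PBX3 were the members apart from each line. MEIS1 read 6.86, 6.82 and 6.74 in MOLM14 and 6.53 on average in U937, which carries another fusion known to act through HOXA genes, and 3.39 and 3.52 in HL60 and KG1a. The MEIS1 difference was 2.32 from the mean and 0.27 from U937, so U937 and MOLM14 nearly shared this level. PBX3 read 8.15 on average in MOLM14 and 5.19 to 6.78 elsewhere, a difference of 2.31 ± 0.11 (adjusted p = 1.31e-15). HOXB2 (-1.32) and HOXD13 (-2.23) were lower than the mean because of 1 line each, KG1a at 7.48 for HOXB2 and HL60 at 9.74 for HOXD13. Their MOLM14 means lay within 0.05 and 0.02 of the nearest line.

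On the lists of HOX genes and microRNA loci, the HOXA cluster had the coding gene HOXA2 (0.59, with KG1a above MOLM14) and the microRNA gene MIR196B tested, and the myeloid microRNA gene MIR223 was also measured. The mature forms are shown because these loci bear on the HOXA and monocytic programmes. MIR1299 is added as 1 of the 3 lowest noncoding loci described above. The sequences come from RefSeq (GRCh38.p14), with the seed (bases 2 to 8) in capitals. miR-196b-5p lies at chr7:27169528-27169549 on the minus strand, miR-223-3p at chrX:66018937-66018958 on the plus strand and miR-1299 at chr9:40929010-40929031 on the minus strand.
miR-196b-5p: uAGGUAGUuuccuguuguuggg
miR-223-3p: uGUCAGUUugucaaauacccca
miR-1299: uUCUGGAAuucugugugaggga

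The 3 seeds differ from one another. The arrays measured transcripts of the loci after labelling of total RNA, and a locus signal need not follow the mature microRNA. MIR196B read 7.83, 7.69 and 7.84 in MOLM14, 9.70 on average in KG1a, 7.53 in U937 and 3.50 in HL60. Its difference of 0.88 from the mean thus came from HL60, and it was -0.82 when HL60 was left out of the mean. MIR223 read 7.79, 7.67 and 7.62 in MOLM14 and 7.79 on average in U937, with 6.25 in HL60 and 4.55 in KG1a, and MOLM14 lay 0.10 from U937. MIR1299 read 4.19, 4.59 and 4.48 in MOLM14 and 5.19 to 8.50 elsewhere. Of 19 tested microRNA loci of blood cells, 6 were higher and 2 lower, and 0 were apart from each line. With an unadjusted p under 0.05 in each pair, 1 locus was apart upward and 0 downward. In the lists below, counts of 0 apart in a direction were also 0 at that unadjusted level.

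Genes downstream of FLT3 signalling moved in both directions. Of 24 tested members of a list of STAT5 and ERK response genes, which includes FLT3, 10 were higher and 9 lower (27.6% and 34.4% of all genes tested). From each line 6 were apart upward and 1 downward (10.6% and 10.0% of all genes), and the median was 0.00. FLT3 and FOS passed the filter through MOLM14 alone, and without them 4 of 22 were apart upward. The STAT5-induced inhibitors of cytokine signalling were among the higher members. SOCS2 read 6.75, 6.60 and 6.54 in MOLM14 and 4.26 to 4.51 elsewhere, a difference of 2.22 ± 0.08 (adjusted p = 5.61e-18), and SOCS1 differed by 1.76 (adjusted p = 4.37e-16).

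Other STAT5 and ERK genes did not follow them. PIM1, a STAT5-induced kinase, was lower by -0.38, and PIM2 (-0.03) and SOCS3 (0.07) did not pass the test. DUSP6, the ERK phosphatase that usually rises with ERK activity, was apart downward at -1.10, and SPRY4 was higher at 0.94 without being apart from each line. IER3, an immediate early gene, was apart upward at 1.11.

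Genes of monocytes and macrophages gave the largest share of members apart from each line among the lists with over 10 tested genes. Of 26 tested members 20 were higher and 4 lower than the mean (27.6% and 34.4% of all genes tested), with a median difference of 1.14. From each line 16 were apart upward and 0 downward, where 10.6% and 10.0% of all genes were. The list median was 1.15 against HL60, 1.73 against KG1a and 0.68 against U937. VNN1 passed the filter through MOLM14 alone, and without it 15 of 25 members were apart upward, where 9.33% of all genes that passed otherwise were. MOLM14 therefore exceeded even the monocytic line U937 in most of these genes, although not in the classic late markers, since CD14, CD163, S100A12 and VCAN were below the level filter in all groups and FCN1 was lower by -0.72.

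An adaptor, a secreted enzyme and a lysosomal protein led the list after IRF8. TYROBP, the signalling adaptor DAP12 of myeloid receptors, read 10.15, 9.98 and 9.91 in MOLM14, 8.59 on average in U937, 5.77 in HL60 and 3.38 in KG1a, a difference of 4.10 ± 0.09 (adjusted p = 8.06e-22). LYZ, which encodes lysozyme, read 9.81, 9.89 and 9.93 in MOLM14 and 9.43 on average in U937, with 7.26 in HL60 and 3.46 in KG1a, and differed by 3.16. CD68, a lysosomal glycoprotein of macrophages, differed by 3.08, with 9.68 to 9.81 in MOLM14 and at most 8.70 elsewhere. For these 3 genes the lines fell in the same order, MOLM14, U937, HL60 and KG1a.

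Receptors of monocytes were also higher. CD4, present on monocytes as well as on T cells, read 7.81, 7.70 and 7.96 in MOLM14 and 3.47 to 6.56 elsewhere, a difference of 2.42. The chemokine receptors CX3CR1 and CCR2 differed by 2.42 and 2.33, from 5.95 to 6.04 and from 6.03 to 6.36 in MOLM14 against at most 4.34 and 4.37 in the other arrays. CSF1R, the receptor for macrophage colony-stimulating factor, read 6.11, 5.97 and 5.90 in MOLM14 and 4.03 to 4.47 elsewhere, a difference of 1.73 ± 0.09 (adjusted p = 7.5e-15). TLR4, which recognises lipopolysaccharide, went the other way with -2.15, and CD86 (0.37) overlapped with HL60. CD36, a scavenger receptor and fatty acid transporter, was higher than the mean by 0.93, but U937 exceeded MOLM14.

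Of 18 tested granule and neutrophil genes 10 were higher and 3 lower than the mean (27.6% and 34.4% of all genes tested), 6 were apart from each line upward and 0 downward, and the median was 0.39. The list median was 1.32 against KG1a but 0.04 against HL60 and 0.19 against U937. AZU1, PRTN3 and CTSG encode serine protease family proteins of azurophil granules. AZU1 read 10.07, 10.17 and 10.04 in MOLM14, 8.70 on average in U937, 6.97 in HL60 and 4.02 in KG1a, a difference of 3.53 ± 0.08 (adjusted p = 8.06e-22). PRTN3 read 12.20 to 12.31 in MOLM14, only 0.44 above U937, and CTSG 11.23 to 11.28, 0.82 above U937. KG1a lay at 3.30 and 3.59 for these genes and gave most of their differences of 3.43 and 3.31. MPO, the myeloperoxidase gene, was not apart from each line. It read 8.92, 8.96 and 8.92 in MOLM14, 12.48 on average in HL60, and 3.26 and 3.30 in KG1a and U937. AZU1 and PRTN3 are close neighbours on chromosome 19, and the run of tested genes PLPPR3, AZU1, PRTN3 and CFD was higher throughout, by 2.77 to 3.53.

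SPI1, which encodes the myeloid transcription factor PU.1, read 7.98, 7.94 and 7.90 in MOLM14, 7.58 on average in U937, 7.52 in HL60 and 4.65 in KG1a, a difference of 1.36 ± 0.09 (adjusted p = 1.25e-12) and 0.36 above U937. Because the monocyte list and the granule list both held genes apart upward, RefSeq promoter windows were searched for the PU.1 word GAGGAAGT on both strands. A window ran from 250 bases before to 50 after a start. It occurred in 909 of 35116 windows, or 2.59%. Among the monocyte genes apart and higher, 1 of 11 with a window held it (TYROBP), and among the granule genes 1 of 4 (PRTN3). LYZ, CD4, CTSS, CTSB and VNN1 of the monocyte genes and BPI and SRGN of the granule genes had no window. A listed gene was counted if any of its windows held the word, while the 2.59% is a share of single windows. The counts of genes therefore cannot be set against that share. The 150 bases before the start of each are shown with the match in capitals, TYROBP at chr19:35908296-35908445 on the minus strand, where the match reads ACTTCCTC and lies 12 to 5 bases upstream, and PRTN3 at chr19:840849-840998 on the plus strand, 88 to 81 bases upstream. A match describes letters in a window, and binding was not measured.
TYROBP: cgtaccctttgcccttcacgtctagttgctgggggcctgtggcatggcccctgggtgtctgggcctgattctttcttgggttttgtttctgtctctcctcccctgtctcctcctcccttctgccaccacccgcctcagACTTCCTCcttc
PRTN3: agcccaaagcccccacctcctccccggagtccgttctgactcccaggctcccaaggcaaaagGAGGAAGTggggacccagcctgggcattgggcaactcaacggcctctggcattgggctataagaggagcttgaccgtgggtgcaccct

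Stem and progenitor genes were lower than the mean of the lines more often than higher. Of 27 tested members 18 were lower and 5 higher (34.4% and 27.6% of all genes tested), with a median of -0.51. From each line, however, 4 were apart downward and 3 upward, where 10.0% and 10.6% of all genes were. The list median was -1.19 against KG1a, -0.04 against HL60 and 0.06 against U937, so the lower values lay in the contrast with KG1a. CD34 shows this, with 11.24 on average in KG1a and 3.60, 3.59 and 3.52 in MOLM14, a difference of -2.55 from the mean, which was 0.00 with KG1a left out. ERG, a transcription factor of stem cells, was apart from each line, with 3.34 to 3.48 in MOLM14, 3.76 on average in HL60, 5.55 in U937 and 7.32 in KG1a (-2.15). LAPTM4B read 9.06 to 9.09 in MOLM14, below KG1a at 10.15 and above HL60 and U937 at 3.49 and 3.51. GATA2, a factor of progenitors and mast cells, was lower by -1.13, and KIT by contrast differed by 0.27 with overlapping arrays.

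Markers of other blood lineages were also measured. Of 15 tested T, NK and innate lymphoid genes 2 were apart upward, a share near the 10.6% of all genes. NCAM1, the adhesion molecule CD56 found on NK cells and on some AML cells, read 7.79, 7.74 and 8.01 in MOLM14 and 3.48 to 3.80 elsewhere, a difference of 4.20 ± 0.08 (adjusted p = 1.74e-23). It passed the filter through MOLM14 alone. IL7R, the interleukin-7 receptor chain, differed by 2.15. CD2 and CD5 did not pass the test, LCK was below the filter, and LEF1 (-2.51) and CD7 (-1.14) were lower than the mean. U937 was as low as MOLM14 for LEF1, at 3.26, and CD7 was high in KG1a alone, at 7.61, with a difference of -0.07 (adjusted p = 0.489) when KG1a was left out.

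Of 10 tested B lineage genes 3 were higher and 6 lower than the mean (27.6% and 34.4% of all genes tested), with a median of -0.25. From each line 2 were apart upward and 1 downward (10.6% and 10.0% of all genes). BLNK, an adaptor of the B cell receptor that is also used in macrophages, read 5.97, 5.80 and 6.05 in MOLM14 and 3.47 to 4.51 elsewhere, a difference of 2.07. PAX5, the B lineage factor, read 6.26, 6.24 and 6.37 against 4.49 to 4.98, a difference of 1.62 (adjusted p = 2.3e-14), while EBF1, at 3.85 in MOLM14, was lower than the mean by -0.29 through U937, at 5.00. Of 13 erythroid, megakaryocyte and mast cell genes 9 were lower than the mean and 1, EPOR, was apart upward (0.69). Lower values there followed KG1a in CPA3 (8.46 in KG1a) and GFI1B (7.93). With KG1a left out of the mean, their differences were 0.01 and 0.03. Of the pan-leukocyte genes, CD53 was apart upward (1.83), and CD48 (-1.05) and ANPEP downward.

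**Figure D3:**
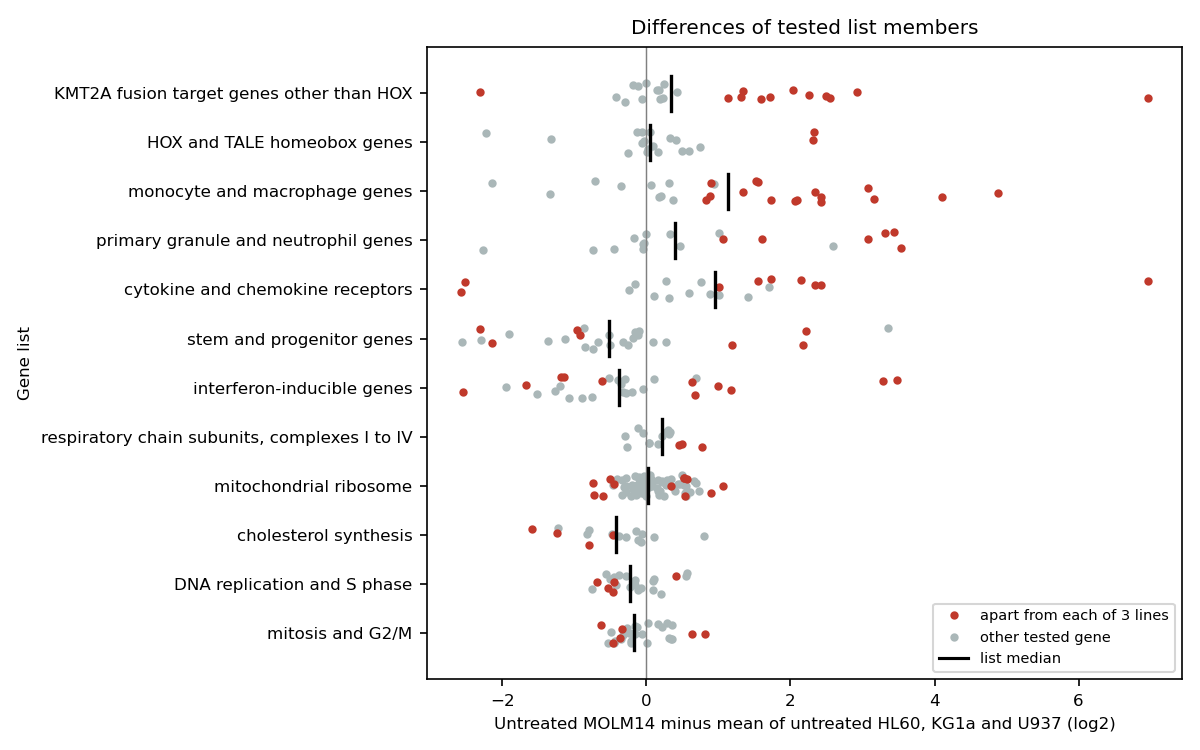
Difference between untreated MOLM14 and the mean of untreated HL60, KG1a and U937 (log2, x axis) for each tested member of 12 gene lists. Red points are genes apart from each of the 3 lines, grey points are other tested genes, and black bars are list medians. The monocyte list has the highest median of those drawn, 1.14, and the stem and progenitor list the lowest, -0.51.

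Cytokine and chemokine receptors were higher in 15 of 20 tested members and lower in 2, with 7 apart upward, 2 apart downward and a median of 0.95. Over all genes tested 27.6% were higher, 34.4% lower and 10.6% apart upward. FLT3, CX3CR1, CCR2, IL7R and CSF1R are members. FLT3 passed the filter through MOLM14 alone, so it had to be higher there. Without FLT3, 14 of 19 members were higher and 6 apart upward, with a median of 0.88, where 9.33% of all genes that passed otherwise were apart upward. Both chains of the interleukin-18 receptor were apart downward. IL18R1 read 3.81, 3.78 and 4.04 in MOLM14 and 6.15 to 6.67 elsewhere, a difference of -2.52 (adjusted p = 1.27e-18), and its partner IL18RAP differed by -2.57. Without the HL60 and U937 arrays lettered C the number of receptors lower than the mean rose from 2 to 4.

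Among the 20 tested cytokine genes, 6 were higher and 8 lower, shares near the 27.6% and 34.4% of all genes tested. TNF, the inflammatory cytokine of macrophages, read 8.65, 8.67 and 8.51 in MOLM14 and 4.03 to 6.79 elsewhere, a difference of 3.23 ± 0.08 (adjusted p = 3.1e-21). IL1RN, the interleukin-1 receptor antagonist, differed by 1.63. HGF was lower than the mean by -3.73, but U937 was as low as MOLM14, at 3.32. IL32 showed the same form with HL60, at 3.60.

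Adhesion genes divided. ICAM1 read 7.56 to 7.74 in MOLM14 and 7.58 on average in U937, so its difference of 2.13 came from HL60 and KG1a. PECAM1 (1.72) and the tetraspanin CD9 (0.89) were apart upward. The tetraspanin CD82 (-1.25), the hyaluronan receptor CD44 (-1.29) and CD58 (-0.85) were apart downward.

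Interferon-inducible genes were split between a few large positive and many negative differences. Of 28 tested members 7 were higher and 18 lower (27.6% and 34.4% of all genes tested), and the median was -0.37. From each line 6 were apart upward and 5 downward (10.6% and 10.0% of all genes). With 1 member that passed the filter through MOLM14 alone left out, 6 of 27 were higher and 5 were apart upward. XAF1, an apoptosis-promoting factor, read 8.76, 8.79 and 8.84 in MOLM14 and 4.19 to 6.73 elsewhere, a difference of 3.48 ± 0.06 (adjusted p = 8.62e-24). SAMHD1, a nucleotide triphosphate hydrolase that restricts retroviruses in myeloid cells, differed by 3.28, with 9.19 to 9.39 in MOLM14 and 4.58 to 7.83 elsewhere. IFITM1 (-2.54) and IFIH1 (-1.68) were apart downward. The list median was 0.24 against HL60, 0.10 against U937 and -1.07 against KG1a. GBP5 shows the KG1a contrast, at 7.71 in KG1a and below 4.02 in the other 3 lines.

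CDKN2A, which encodes an inhibitor of cyclin-dependent kinases, was low in MOLM14 (3.22, 3.29 and 3.02) and in KG1a (3.37), with 5.19 in HL60 and 5.39 in U937. Its neighbour MTAP read 6.44 to 6.53 in MOLM14, within 0.01 of KG1a. All 6 tested genes of that region were lower than the mean, and 2 of them, KLHL9 and FOCAD, were apart from each line. Over all genes tested 34.4% were lower and 10.0% apart downward. With KG1a left out of the mean, DMRTA1 of that region differed by -0.15 (limma, adjusted p = 0.0886).

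Mitochondrial energy genes did not move as 1 group. Of 15 tested respiratory chain subunits 7 were higher and 2 lower, 3 were apart upward and the median was 0.21. Among all genes tested 27.6% were higher, 34.4% lower and 10.6% apart upward. COX7A2, a subunit of cytochrome c oxidase, read 7.50, 7.89 and 7.73 in MOLM14 and 6.66 to 7.33 elsewhere (0.77), and CYC1 and COX4I1 were apart by 0.50 and 0.45. Of 74 mitochondrial ribosome genes 28 were higher and 18 lower, 7 were apart upward and 5 downward, and the median was 0.02. These shares apart lay at or below the 10.6% and 10.0% of all genes. MRPL44 (1.06) and MRPS27 (0.90) were at the upper end and MRPL49 (-0.74) at the lower. Of 11 tested TCA cycle genes 3 were higher and 5 lower, with 1 apart upward and 3 downward. Citrate synthase, CS, read 9.25, 9.10 and 9.31 in MOLM14 and 7.84 to 9.09 elsewhere (0.69), but with an adjusted p of 0.14 against HL60, while DLST (-0.75), PDHB (-0.63) and IDH3A (-0.60) were apart downward. Of the 3 measured ATP synthase genes, ATP5MK was apart upward (0.94) and ATP5MJ (-0.37) and ATP5IF1 (-0.51) downward.

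Fat and sugar metabolism genes differed gene by gene. Of 18 tested fatty acid uptake and oxidation genes 10 were higher and 7 lower (27.6% and 34.4% of all genes tested). From each line 1 was apart upward and 2 downward (10.6% and 10.0% of all genes). ACSL1, which activates long-chain fatty acids, read 7.83 to 8.07 in MOLM14 and 4.90 to 7.72 elsewhere (1.41), whereas HADH was apart downward (-0.97), as was ECI2. CPT1A, the mitochondrial entry enzyme for fatty acids, was lower than the mean by -0.44, which was 0.14 with KG1a left out. In glycolysis, 2 of 9 tested genes were higher and 5 lower. Hexokinase 2, HK2, read 6.54, 6.73 and 6.77 in MOLM14 and 7.21 to 8.13 elsewhere (-0.99, adjusted p = 2.38e-10), and GPI was apart downward (-0.47) and PGAM1 upward (0.57).

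Cholesterol synthesis genes were lower in 10 of 16 tested members and higher in 1, with 4 apart downward, 0 upward and a median of -0.42. Over all genes tested 34.4% were lower, 27.6% higher and 10.0% apart downward. SQLE, squalene epoxidase, read 7.35, 7.44 and 7.37 in MOLM14 and 8.07 to 10.01 elsewhere, a difference of -1.59 ± 0.06 (adjusted p = 9.7e-17). DHCR7, the last enzyme of the pathway, differed by -1.24 and EBP, a sterol isomerase, by -0.80. HMGCS1 (-1.22) was as low in U937, at 6.68, as in MOLM14.

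Genes of the ATF4 amino acid response were higher in 15 of 21 tested members and lower in 3, where 27.6% and 34.4% of all genes tested were, with 4 apart upward and 1 downward. The list median was 0.52 against the mean, 1.07 against KG1a, 0.42 against U937 and 0.01 against HL60. VLDLR (2.24) and DDIT4 (2.03), an inhibitor of mTORC1, were apart upward. ASNS and PHGDH, enzymes of asparagine and serine synthesis, were higher than the mean by 0.86 each but lower than in HL60. ATF4 itself differed by 0.11 and did not pass the test.

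Cell cycle genes differed by small amounts. Of 23 tested replication and S phase genes 13 were lower and 4 higher (median -0.22), with GINS1 (-0.68), RRM2 (-0.54) and MCM2 (-0.46) among the 4 apart downward. Of 31 tested mitosis genes 17 were lower and 8 higher (median -0.17), among them CDC25B (-0.64) and KIF2C (-0.47) apart downward and BUB3 (0.82) apart upward. Over all genes tested 34.4% were lower, 27.6% higher and 10.0% apart downward, with a median of -0.05, and in each of these lists 4 members were apart downward. MKI67, the proliferation antigen Ki-67, differed by 0.02 and did not pass the test. Other lists had few measured members. The 4 tested genes of HLA class I and its loading were ERAP1, ERAP2, TAPBP and B2M, with no HLA heavy chain gene. ERAP1, a peptide trimming enzyme, was apart by 1.58 and TAPBP by 0.56. B2M differed by -0.16 (adjusted p = 0.0472), a call lost under several of the other settings tried. Of 4 cancer-testis genes 2 were lower through HL60 or KG1a, and of 2 HLA class II regulators RFXAP was lower by -0.55, which was -0.17 (adjusted p = 0.103) with HL60 left out, and RFXANK higher by 0.21, a call lost under quantile normalisation (adjusted p = 0.0945), without HL60 and without MOLM14 array A or B.

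The genes apart from each line were unevenly spread over the chromosomes. Of 419 tested genes on chromosome 10, 23.2% were higher and 3.1% lower. Chromosome 12 had 22% higher and 5.73% lower of 558, chromosome 13 had 19.7% higher and 3.76% lower of 213, chromosome 5 had 17.3% higher, and chromosome 6 had 16.2%. In the other direction, 18% of 572 tested genes on chromosome 3, 17.5% of 331 on chromosome 14, 16.5% of 352 on chromosome X and 16.3% of 682 on chromosome 2 were lower, with 7.17%, 4.53%, 3.41% and 6.01% higher. Over all chromosomes 10.6% were higher and 10.0% lower.

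The chromosome medians showed whether 1 line carried the contrast. On chromosome 10 the median difference was 0.19 against HL60, 0.21 against KG1a and 0.16 against U937, so it was of like size against each line. On chromosome 3 it was -0.18, -0.11 and -0.15. On chromosome 13, despite its share of higher genes, it was 0.01, 0.16 and 0.03. Chromosome 8 was higher mainly against HL60, with 0.59, -0.12 and 0.05. Chromosome 14 was lower against KG1a (-0.38) and HL60 (-0.19) but not against U937 (0.00), and chromosome X was lowest against U937 (-0.31). DNA copy number was not measured on these arrays, and its part in these shares was not tested.

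**Figure D4:**
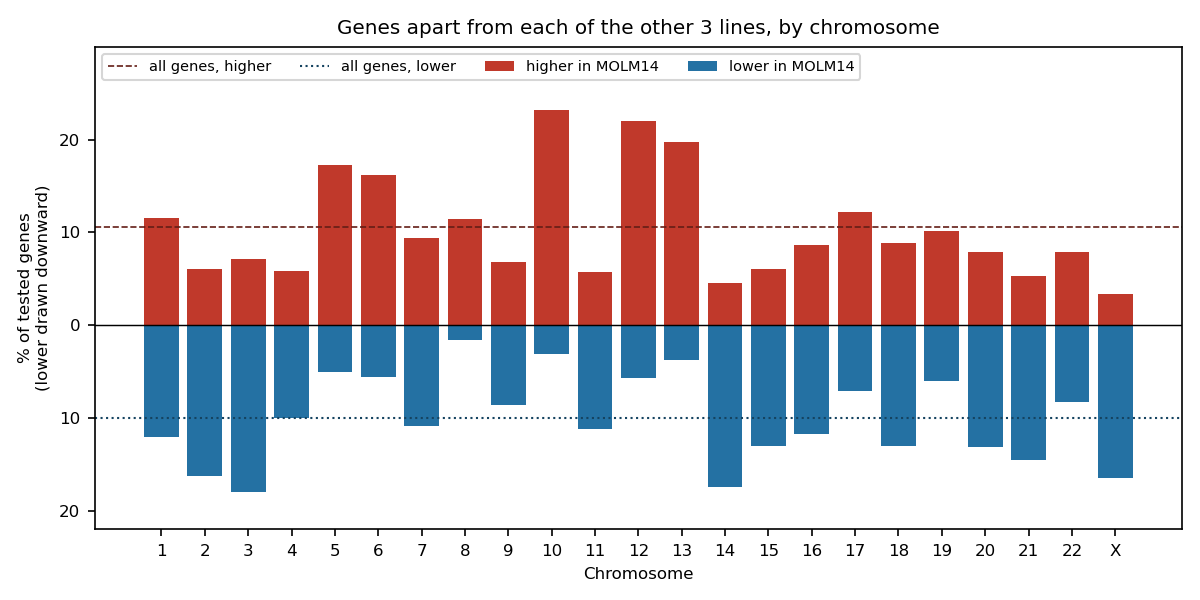
Percentage of tested genes on each chromosome that were apart from each of the other 3 lines, with genes higher in untreated MOLM14 drawn upward and lower ones downward. Dashed and dotted lines mark the shares over all genes tested, 10.6% and 10.0%. Chromosomes 10, 12 and 13 have the tallest upward bars, and chromosomes 3, 14 and X among the tallest downward ones.

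Genes apart from each line also stood in runs. The longest was of 8 neighbouring tested genes on chromosome 14, from PNMA1 to ISCA2, all lower by -0.58 to -1.35. A run of 7 on chromosome 6, from MTRES1 to AFG1L, was higher by 0.63 to 1.82. Runs of 6 stood on chromosome 10, from MRPS16 to CHCHD1 (0.37 to 1.07 higher), and on chromosome X, from YY2 to APOO (-0.60 to -0.96). In the treated arrays 5, 6, 3 and 4 genes of these 4 runs were again apart from each line with the same sign. The runs were chosen after the values were seen and carry no test.

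The same line difference was then read in the 12 metformin-treated arrays. The group means of this contrast share no array with the untreated ones but come from the same 4 lines. The spread within groups, the level filter and the row chosen per gene were taken from all 24 arrays. In these respects the treated and untreated readings are not independent. Treated MOLM14 differed from the mean of treated HL60, KG1a and U937 in 6549 genes (61.5%), 2970 higher (27.9%) and 3579 lower (33.6%), and 2137 genes (20.1%) were apart from each treated line. Of the 2190 genes apart untreated, 1675 were also apart with the same sign when treated, which is 76.5% of the untreated and 78.4% of the treated list, and 0 were apart with the opposite sign. Among the 2190 genes, 2130 passed the treated mean contrast with the same sign, and 5 had a treated difference of opposite sign at any p. FLT3 differed by 7.03 in the treated arrays, PDLIM1 by 6.38, POPDC1 by 5.42, TYROBP by 4.07, MEIS1 by 2.27 and CD69 by -5.08.

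The size of the MOLM14 difference changed with treatment in 137 of 10641 genes, or 1.29% (limma, treated minus untreated difference, adjusted p under 0.05), and 67 of these were among the genes apart from each line. Of the 26 tested monocyte and macrophage genes 6 were among the 137, CCR2, CSF1R, MNDA, S100A8, TLR2 and VNN1. The CSF1R difference was 1.73 untreated and 1.05 treated, a change of -0.68 ± 0.12 (adjusted p = 0.00352). For CCR2 it went from 2.33 to 1.53 (-0.80, adjusted p = 0.000442) and for MPEG1, which is not on that list, from 4.96 to 4.52 (-0.44). TNF went the other way, from 3.23 to 3.87 (0.65, adjusted p = 0.00218).

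**Figure D5:**
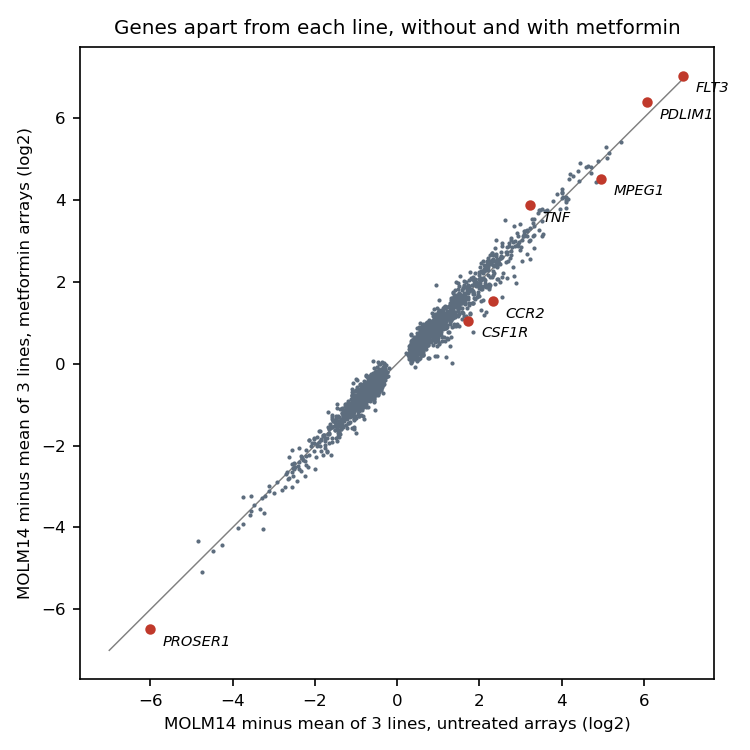
MOLM14 minus the mean of the 3 other lines (log2) in untreated arrays (x axis) and metformin-treated arrays (y axis) for the 2190 genes apart from each line untreated, with 1 point per gene and a line of equality. Points lie along the line from PROSER1 to FLT3, and CSF1R and CCR2 lie below it.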

How the data were processed

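RNA of 24 samples was measured on Affymetrix arrays after labelling with the GeneChip WT PLUS kit. The authors deposited normalised signals on a log2 scale. The submitters' processing notes name Partek. Background correction, method of normalisation and genome build: not given in the sources used here. This log2 scale was read from the values, which span 1.88 to 14.2 with array medians near 4.02.

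Of 53617 rows, 16098 carried 1 gene symbol in the platform annotation, 0 carried several and 37519 are unnamed here. All 16098 matched RefSeq gene records, giving 14884 genes. Each gene was represented by its row with the highest mean over the 24 arrays. Genes with at least 1 group mean of 4.02 or more were tested, 10641 in all. Of these, 224 passed through MOLM14 groups alone.

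Limma 3.58.1 (R 4.3.3) fitted 8 group means to the 24 arrays, with 16 residual degrees of freedom, and p-values were adjusted over all tested genes by the Benjamini-Hochberg method with a threshold of 0.05. The scripts were tested on simulated data. Named genes were the 12 highest and 12 lowest coding genes and the 3 highest and 3 lowest other loci among genes apart from each line whose 3 MOLM14 arrays lay outside the range of the 9 others, 2 to 4 members of each of 30 lists by smallest adjusted p, and a fixed set. The result of 1 list is not reported here. List members named beyond these, and the chromosome runs, were chosen after their values were seen. The members and lists were chosen with earlier results of these data known. Gene starts, promoter windows and mature microRNAs come from RefSeq (GRCh38.p14).

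Replicate arrays of a group correlated at 0.983 to 0.991 over all rows and shared at most 4 identical values. The HL60 and U937 arrays lettered C had a narrower spread (interquartile ranges of 1.90 and 1.99) than the other untreated arrays (2.11 to 2.25). Alternatives were other scalings, filters, row choices and variance models, a replicate block, each line as 1 value, lines left out, and arrays left out.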

Additional observations from a re-analysis of the deposited data

Results flagged for a closer look

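The MOLM14 difference from the mean of the other 3 lines changed with metformin in 14 of the 149 genes named by rule. The test was the limma interaction between untreated and metformin-treated arrays (adjusted p under 0.05, 12 arrays each). MNDA, S100A8, TLR2 and VNN1, given above as monocyte genes that changed, were not named by that rule and are not counted here. Of the 14 genes, MPO had the largest change, -1.28 (adjusted p = 9.64e-08), from 2.59 untreated to 1.31 treated. CCR2 changed by -0.80, DDIT4 by -0.71, CSF1R by -0.68, SOCS1 by -0.52, IL1RN by -0.47, MPEG1 by -0.44 and VLDLR by -0.42, so their positive differences were smaller with metformin. PHGDH changed by -0.56 and ASNS by -0.47. TNF changed by 0.65 and NCAM1 by 0.44 (adjusted p = 0.0496), so their positive differences were larger. The negative difference of HMGCS1 was smaller with metformin, by 0.57, and that of PROSER1 larger, by -0.47. Groups of 3 arrays are too small for a check of single outlying arrays.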

How the results depend on the processing

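The count of genes different from the mean of the 3 lines was 6052 to 6632 when 1 untreated array was left out and 6588 with a replicate block, and the count apart from each line was 2026 to 2180 and 2198. Same-letter arrays of different lines deviated together in 5 of 18 pairs (correlation over 0.1, range -0.22 to 0.37), so the letters were not taken to pair the arrays. The mean contrast gave 1240 genes when a difference of at least 1 log2 unit was also asked for, and 0 with each line as 1 value. Asking for 1 sign without an adjusted p in each pair gave 4382 genes. All other counts of the 6 comparisons stayed within 1.5 times the main count, and quantile normalisation moved the share of higher genes among those apart from each line from 51.3% to 47.6%.

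The choice of lines in the mean turned the sign of 10 of the 149 named genes. Without HL60, ACAA2 was -0.47 and MIR196B -0.82. Without KG1a the values were 0.0063 for CPA3, 0.031 for GFI1B, 0.075 for B2M, 0.14 for DAZL, -0.0203 for PHGDH, -0.21 for MIR424, 0.0017 for CD34 and 0.14 for CPT1A. The call was lost without HL60 for HOXD13, RFXAP, RFXANK, PRAME and KIT, without KG1a for HOXB2, CD7, GBP5 and DMRTA1, and without U937 for ERAP2, UQCRC2, HK1 and CD86, and GAGE12J gained it without HL60. With each line as 1 value, 147 of the 149 lost the call. Under the settings that kept all 3 lines, B2M, RFXANK and KIT were the named genes that lost it. RFXANK lost it under quantile normalisation and without MOLM14 array A or B, and KIT without MOLM14 array A or C. B2M lost it with arrays centred on their medians, without the filter, with only the 12 arrays, with the replicate block, without HL60 and U937 arrays C together, and without any of several single arrays.

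Limits: each line is 1 line, low signals have no detection call, 37519 rows are unnamed here, and how the arrays were normalised is not given here.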
